A study of Sus scrofa with 28 samples.

Results

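The comparison described here set the left apical lung lobe of 3 swine that had inhaled a medium dose of sulfur mustard vapor (labelled HD) against the same lobe of 3 swine that had inhaled air. Its members were chosen by label alone: every array whose sample came from the apical lobe and whose exposure was medium or air, which gave 6 of the 28 arrays of the series, 1 array per animal. All animals were large female swine (Sus scrofa), kept in individual pens, premedicated, anesthetized by inhalation, intubated and laid supine. The medium animals, numbered 34, 39 and 42, were exposed to 100 µg/kg for 10 min. The air animals, numbered 28, 29 and 44, breathed air for 10 min. The lungs were removed at 12 h, and tissue of each lobe was kept in RNAlater before total RNA was hybridized to Affymetrix porcine arrays. A low group of 3 animals (31, 32 and 33; 60 µg/kg) entered the same statistical fit to help estimate the spread between animals. A further medium animal, 41, had no apical array, and medium animal 39 had no caudal array. Strain and age are not in the labels.

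Sulfur mustard is a bifunctional alkylating agent that crosslinks DNA and modifies proteins, and inhaled vapor reacts first with the lining of the airways. Damaged airway epithelium is known for sloughing, for fibrin-rich casts that follow activation of coagulation by tissue factor, and for recruitment of neutrophils by chemokines. Alkylated DNA activates the p53 pathway, while thiol loss engages the antioxidant factor NRF2, and cells under either stress transcribe immediate early genes, stress kinase phosphatases and amino acid response genes.

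The arrays resembled each other closely. Median signal ran from 55.4 to 60.5 over the 6 arrays, and the correlation between arrays was 0.981 to 0.987 within the air group, 0.966 to 0.978 within the medium group and 0.975 to 0.983 between the groups. The surfactant protein genes SFTPC (2596, 3072 and 3664 in air animals 28, 29 and 44; 2918, 2086 and 2933 in medium animals 34, 39 and 42) and SFTPD (1191, 1378 and 1314; 1044, 1243 and 1105) were among the bright signals in every animal, as in lung tissue. RNA integrity was gauged from 5 pairs of control probe sets for actin and GAPDH. The index averages how far the 3' member exceeds the 5' member on the log2 scale and is higher where RNA is less intact. It was 0.50 to 0.75 in the air animals and 0.0845, 0.203 and 1.18 in medium animals 42, 34 and 39. The group means differed by -0.12 (p = 0.9 by a two-sided exact permutation test). Since 6 animals can be divided 3 and 3 in only 20 ways, 0.1 is the smallest p such a test allows, for this index or for any single gene. Animal 39 had the least intact RNA of the 6 by this index.

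No probe set passed the test across the whole array. In limma's fit of the 9 apical arrays, 0 of 23999 probe sets had a Benjamini-Hochberg adjusted p under 0.05 (0% called), and the smallest adjusted p was 0.196. At an unadjusted p under 0.05 there were 1384 probe sets (5.77%), of which 717 were higher (2.99%) and 667 lower (2.78%) in the medium group. Differences are given throughout as medium minus air on the log2(signal + 16) scale with the standard error of the fit, and since none passed, each is a measured difference and not a called change. Taking 1 probe set per gene symbol, 90% of the 6765 differences lay between -0.32 and 0.30, with a median of -0.02. Of these symbols 45.6% had a difference above 0. At an unadjusted p under 0.05, 2.56% of them were higher and 3.28% lower. The counts in the gene lists below are to be read beside these shares. The 2 groups did not overlap, judged on the normalized values, for 290 symbols that were higher in the medium animals (4.29%) and 416 that were lower (6.15%). A difference beyond 1 was reached by 8 symbols upward (0.118%), namely OLFM4, TNFRSF12A, NUDT6, CCL24, ANKRD1, INMT, SDS and ISG15, and by 3 downward (0.0443%), namely FBXO32, PTER and GNLY. The groups overlapped for SDS and ISG15. For SDS (1.02 ± 0.83) air animal 44 was at 10.5, against 298 and 244 in air animals 28 and 29.

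The smallest p belonged to a probe set without a gene symbol. Its signals were 42.1, 35.6 and 37.3 in air animals 28, 29 and 44 and 98.8, 180.4 and 135 in medium animals 34, 39 and 42, a difference of 1.45 ± 0.16 (adjusted p = 0.196). The air animals were tightly grouped and every medium animal lay far above them. A choice by small p favors groups that do not overlap, here and for the genes below chosen in that way. The low animals, at 42.2, 39.9 and 43.7, lay close to the air animals. This probe set was called when animal 34 was left out, and 5 probe sets were called when all 28 arrays were fitted with the animal as a random block: this one, 3 others without a symbol that were higher in the medium group, and FBXO32. Of the 20 probe sets with the smallest p, 14 had no single gene symbol in the annotation used.

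FBXO32 was the named gene with the smallest p. It encodes atrogin-1, the substrate-binding part of a ubiquitin ligase that FOXO transcription factors induce in wasting muscle. Its signal was 265, 333 and 408 in air animals 28, 29 and 44 and 127, 112 and 76.1 in medium animals 34, 39 and 42. Every medium animal lay below every air animal, and the group means were 335 ± 71.4 and 105 ± 26.2 (SD, n = 3 each). The difference was -1.52 ± 0.20 (adjusted p = 0.202; adjusted p = 0.0271 with the animal block over 28 arrays), and a second, dimmer probe set gave -1.53 ± 0.28. Over the 12 measured genes of the FOXO and muscle atrophy list, FBXO32 included, the median was -0.04, with 5 of 12 above 0, where 45.6% of all symbols were above 0. Without animal 42 that median was -0.27, with 1 of 12 above 0. FOXO3 (-0.26 ± 0.13) also had separate groups, and FOXO1 (0.26 ± 0.21), PIK3IP1 (-0.18 ± 0.11) and SESN1 (-0.01 ± 0.13) were each within about 2 standard errors of 0.

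MUC1, a membrane mucin of alveolar type 2 and airway cells, had signals of 179, 175 and 153 in air and 97.4, 101 and 77.5 in medium animals, with no overlap. The difference was -0.76 ± 0.12 (adjusted p = 0.363), and -0.14 ± 0.12 on a second probe set near the bottom of the signal range. In bulk tissue, fewer cells of a type and less RNA per cell cannot be told apart, here or for any gene below. Among the other type 2 cell genes SFTPC differed by 0.01 ± 0.09, SFTPD by -0.14 ± 0.15, the phosphate transporter SLC34A2 by -0.13 ± 0.15 and SFTPA1 by -0.56 ± 0.29. The value for SFTPC depended on scaling, at -0.21 with median-centred arrays and -0.24 with the deposited scaling. SFTPA1 and SFTPB were lowest in animal 39, at 640.4 and 129.9, against 1692 and 678 in animal 34, and the part that RNA integrity had in this was not tested. The 8 type 2 cell genes had summed signals of 7629 to 9442 in air and 6059 to 8599.5 in medium animals, 2 of 8 were above 0, and their median difference was -0.14.

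PTER, an enzyme of the phosphotriesterase family, was at 105, 75.3 and 96.5 in air animals and 33.8, 34.2 and 39.2 in medium animals. The medium animals clustered near a common level, for a difference of -1.02 ± 0.16 (adjusted p = 0.363). NPY1R, a receptor for neuropeptide Y, differed by -0.63 ± 0.13 (signals 66.0, 73.5 and 95 against 48, 38.0 and 43.7). APOBEC3B, a cytidine deaminase of the antiviral APOBEC family, was at 183, 198 and 179.6 against 136, 134 and 114, a difference of -0.49 ± 0.10, and -0.15 ± 0.16 on a second, dimmer probe set. Neither pair of groups overlapped. The remaining genes with the smallest p on the lower side were ELMOD3, a GTPase regulator (-0.45 ± 0.10), the zinc importer SLC39A1 (-0.51 ± 0.12), the tetraspanin TSPAN33 (-0.49 ± 0.12), the serine carboxypeptidase SCPEP1 (-0.53 ± 0.13) and GNLY (-1.02 ± 0.26). Their adjusted p ran from 0.777 to 0.8, and in each of them the groups did not overlap on the probe set given. Other probe sets of ELMOD3 (-0.19 ± 0.21 and -0.28 ± 0.27) and SCPEP1 (-1.03 ± 0.38) had groups that overlapped. A second SLC39A1 probe set had separate groups (-0.28 ± 0.11).

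**Figure D1:**
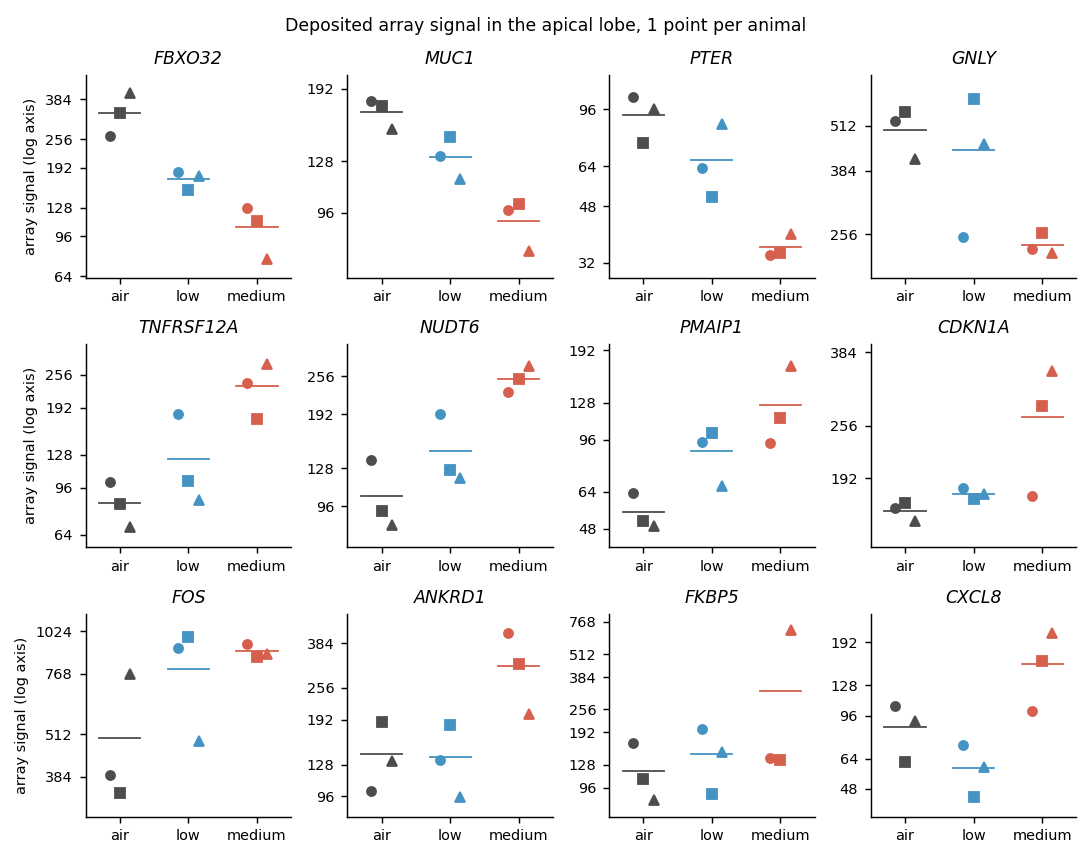
Deposited array signal (vertical axis, log scale) of 12 genes in the apical lobe, with 1 point per animal for air, low and medium exposure and a line at each group's mean. In normalized values FBXO32, MUC1, PTER and GNLY were lower and TNFRSF12A, NUDT6, PMAIP1, CDKN1A, FOS and ANKRD1 higher in every medium animal than in every air animal, while FKBP5 was high in medium animal 42 alone (687) and CXCL8 overlapped.

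On the higher side the injury receptor TNFRSF12A showed the largest difference of the 10 genes with the smallest p in that direction. It binds the cytokine TWEAK and is induced in wounded epithelium and endothelium. Signals were 101, 83.6 and 68.5 in air animals 28, 29 and 44 and 239, 175 and 280.0 in medium animals 34, 39 and 42, and the lowest medium animal was above the highest air animal. The difference was 1.28 ± 0.27 (adjusted p = 0.725), and 0.71 ± 0.23 on a second probe set, which was the brighter of the pair in these 6 animals. The largest difference on the higher side was that of OLFM4, a secreted glycoprotein of neutrophils and stressed epithelium, at 66.5, 50.8 and 33.2 against 284, 82.6 and 159.7 (1.44 ± 0.38; adjusted p = 0.808). CCL24, an eosinophil chemokine, was at 263, 443 and 208 against 716, 525 and 814 (1.15 ± 0.31). Both are given because of the size of their difference, seen in these values. RCAN1, an inhibitor of calcineurin that calcineurin signalling itself induces, was at 251, 241 and 226 against 428, 313 and 471, a difference of 0.67 ± 0.17 (adjusted p = 0.8). Its air animals were close together and all medium animals were above them. A second, dimmer RCAN1 probe set gave 0.44 ± 0.33, with groups that overlapped.

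NUDT6, a Nudix hydrolase gene that lies antisense to the growth factor gene FGF2, was at 136, 92.5 and 82.9 against 227, 251 and 277, a difference of 1.16 ± 0.21 (adjusted p = 0.614). Its groups did not overlap, but a second, dimmer probe set for NUDT6 gave -0.10 ± 0.11 and FGF2 itself 0.30 ± 0.25. PTHLH, which encodes parathyroid hormone related protein, was at 25.3, 20.7 and 19.9 against 53.1, 32.8 and 45.0 (0.65 ± 0.13). WDFY3, an autophagy adaptor, was at 207, 219 and 255 against 444, 463 and 323 (0.78 ± 0.16). Both showed separate groups, but dimmer WDFY3 probe sets gave 0.12 ± 0.21 and 0.03 ± 0.15. CELF4, an RNA-binding protein (0.83 ± 0.18, and 1.21 ± 0.28 on a second probe set), NDEL1, a dynein regulator (0.40 ± 0.10), and CLDN4, a tight junction claudin (0.61 ± 0.14), completed this set, with adjusted p of 0.745, 0.8 and 0.8.

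Immediate early genes, which encode transcription factors and feedback inhibitors made within minutes of a stimulus, were higher almost throughout. Of the 18 measured, 17 had a difference above 0 (45.6% of all symbols did), and 0 were called. On the higher side 6 had an unadjusted p under 0.05 in limma's fit (2.56% of all symbols). Groups did not overlap for 5, all higher (4.29% of all symbols). The list's median was 0.41. FOS, a subunit of the AP-1 factor, was at 388, 343 and 766 in air and 943, 864 and 879.9 in medium animals (0.92 ± 0.32; adjusted p = 0.811). The medium animals agreed closely, and the spread lay in the air group, where animal 44 was high.

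Animal 44 was also the high air animal for EGR1 (330.1, 282 and 897 against 508, 829 and 701; 0.60 ± 0.40), for JUN (923, 859.7 and 1866 against 1552, 1334 and 2106; 0.60 ± 0.28) and for the MAP kinase phosphatase DUSP1 (909.9, 939.5 and 1684 against 1456, 1524 and 2106; 0.65 ± 0.24), whose groups overlapped. NR4A3, an orphan nuclear receptor, separated the groups with signals of 29.8, 24.5 and 29.8 against 85.8, 40.5 and 75.6 (0.89 ± 0.19; adjusted p = 0.751), but a second probe set at a signal below 10 gave -0.29 ± 0.15. KLF4, a factor of epithelial and endothelial differentiation, was at 512, 468 and 346 against 719.7, 1017 and 573 (0.78 ± 0.23). FOSL2 (0.56 ± 0.22) and KLF10 (0.30 ± 0.12) also had separate groups, while MYC (0.16 ± 0.20), FOSL1 (0.15 ± 0.11) and NR4A2 (0.11 ± 0.14) lay nearer 0. KLF2, the 1 member below 0 (-0.22 ± 0.23), was dim (14.7, 10.2 and 17.8 against 19.3, 1.34 and 14.8).

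The size of this shift varied between medium animals. As the median over the 18 genes of the deviation from the air mean, it was 0.20, 0.24 and 0.74 in animals 34, 39 and 42, against -0.14, -0.19 and 0.24 in air animals 28, 29 and 44. Without animal 42 the list's median was 0.21, with 14 of 18 above 0 and 4 at an unadjusted p under 0.05. Without air animal 28 or 29 that last count was 2, and without air animal 44 it was 8.

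**Figure D2:**
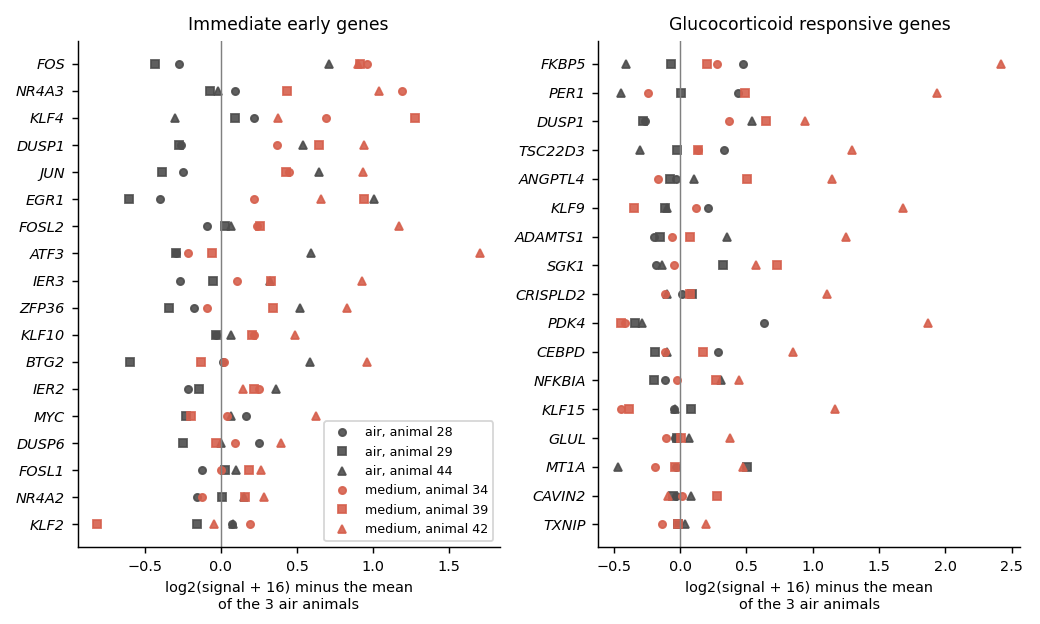
Each gene's log2(signal + 16) in each air (grey) and medium (red) animal, minus the mean of the 3 air animals (horizontal axis), for the 18 immediate early and 17 glucocorticoid responsive genes. Most immediate early genes lie to the right in the medium animals, with list medians of 0.20, 0.24 and 0.74 in animals 34, 39 and 42. Air animal 44 has a list median of 0.24, so only animal 42 lies clearly above the air animals. For the glucocorticoid list medium animal 42 (red triangles) stands apart with a median of 1.10.

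Glucocorticoid responsive genes were carried by 1 animal. All 17 measured genes had a difference above 0 (45.6% of all symbols did), with a median of 0.35. The groups separated in 0 of the 17, where 4.29% of all symbols had separate groups on the higher side. The median deviation from the air mean was -0.11, 0.14 and 1.10 in animals 34, 39 and 42. FKBP5, a cochaperone of the glucocorticoid receptor, was at 139, 136 and 687 in these animals against 169, 107 and 82.7 in the air animals, which is a high value in animal 42 and none outside the air range in the others. Animal 42 was the highest of the 6 also for the clock gene PER1 (283, 497 and 1334 against 467, 344 and 243), for KLF9 (563, 415 and 1712 against 597, 474 and 472) and for the pyruvate dehydrogenase kinase PDK4 (179, 184 and 952 against 398, 191 and 197). Without animal 42 the list's median was 0.03. Animal 42 was also the highest medium animal for ATF3 (77.9, 86.7 and 343), GADD45B (416, 172 and 929), tissue factor (609.9, 552 and 1205) and the protease receptor F2RL2 (669, 416 and 2141). The animals had been anesthetized, and circulating steroid is not in the labels. What set animal 42 apart was not tested.

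Genes of coagulation were higher in part. Tissue factor, F3, starts the extrinsic pathway, and its signal was 480.3, 375 and 533 in air and 609.9, 552 and 1205 in medium animals (0.66 ± 0.28; adjusted p = 0.858). Animal 42 was far above the others, animals 34 and 39 lay just above the highest air animal in deposited signal, and after normalization the groups overlapped. F2R, the thrombin receptor PAR1, was at 672, 806 and 742 against 1015, 959.8 and 1323, a difference of 0.57 ± 0.14 (adjusted p = 0.8) with no overlap. Thrombospondin THBS1 (779, 812 and 759 against 839, 959 and 1239; 0.37 ± 0.20) separated the groups by a smaller amount. Another, dimmer THBS1 probe set had groups that overlapped (220, 186 and 114 against 209, 136 and 465; 0.47 ± 0.43). The plasminogen activator PLAU (0.21 ± 0.16) and the thrombin cofactor THBD (0.20 ± 0.19) differed by little more than their standard errors. The anticoagulants PROS1 (1074, 1133 and 1002 against 943, 933 and 838; -0.22 ± 0.10) and TFPI, which was dim (-0.26 ± 0.14), were lower with separate groups. Over the 21 genes, 15 were above 0 (45.6% of all symbols were). At an unadjusted p under 0.05 in limma's fit, 2 were higher and 1 lower (2.56% and 3.28% of all symbols). Groups were separate for 3 on the higher and 2 on the lower side (4.29% and 6.15% of all symbols). The list's median was 0.20, or 0.09 without animal 42.

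Genes responsive to YAP and TEAD, the mechanical and wound-sensing transcription factors, had 9 of 10 members above 0 and a median of 0.17. ANKRD1, a nuclear cofactor and frequently used readout of YAP, was at 100.3, 189 and 133 in air and 419, 316 and 202 in medium animals (1.03 ± 0.31; adjusted p = 0.808). Here animal 34 was the highest and animal 42 the lowest of the medium animals. CYR61, a matricellular protein, was at 419.6, 564 and 957 against 830.4, 1107 and 1012 (0.71 ± 0.32) and overlapped through air animal 44. In the list of EGF receptor ligands and wound repair, which holds TNFRSF12A as well, the ligand AREG was near the bottom of the signal range (1.21, 0.299 and 6.43 against 6.87, 4.98 and 18.2; 0.48 ± 0.18), and HBEGF differed by 0.23 ± 0.23 and TGFA by 0.10 ± 0.12. That list had 13 of 18 genes above 0 and a median of 0.19.

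Of the responses tied to alkylated DNA, a few p53 targets were higher and the rest of the list was near 0. PMAIP1, which encodes the pro-apoptotic BH3 protein NOXA, was at 63.6, 51.2 and 49.2 in air and 93.2, 114 and 171 in medium animals (0.98 ± 0.21; adjusted p = 0.751). CDKN1A, the cell cycle inhibitor p21, was at 163, 167 and 152 against 174, 285 and 347 (0.62 ± 0.20; adjusted p = 0.808). Both separated the groups, and for CDKN1A animal 34 lay just above the air range while animals 39 and 42 were well above it. GADD45B (416, 172 and 929 against 221, 172 and 259 in air; 0.86 ± 0.48) and GADD45G (0.71 ± 0.36) overlapped. Other p53 targets lay on the opposite side or at 0: CCNG1 -0.15 ± 0.10, FDXR -0.19 ± 0.13, FAS -0.30 ± 0.16, SESN1 -0.01 ± 0.13 and DDB2 0.04 ± 0.09. The 24 genes had 15 above 0 (45.6% of all symbols were) and a median of 0.06 (-0.01 without animal 42). At an unadjusted p under 0.05 there were 2, both higher and named above (2.56% of all symbols were higher).

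The 19 DNA repair genes had a median of -0.05 and 0 at an unadjusted p under 0.05 (2.56% of all symbols were higher and 3.28% lower). The alkylguanine repair enzyme MGMT differed by -0.04 ± 0.13 and the Fanconi protein FANCD2 by -0.29 ± 0.14. Among 15 BCL2 family and caspase genes PMAIP1 alone had an unadjusted p under 0.05, the inflammatory caspase CASP1 differed by -0.39 ± 0.26, and the median was -0.01. NRF2 targets were centred on 0 with a median of 0.01 over 24 genes. The quinone reductase NQO1 differed by 0.44 ± 0.22 and the thioredoxin reductase TXNRD1 by 0.21 ± 0.11. Heme oxygenase HMOX1 was at 1104, 805 and 1425 against 1502, 925 and 1079.9 (0.11 ± 0.22), with groups that overlapped fully. EPHX1, a microsomal epoxide hydrolase, was the 1 member at an unadjusted p under 0.05, on the lower side (930.2, 784 and 703 against 522, 672 and 644; -0.39 ± 0.14).

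Among 29 inflammatory genes 2 neutrophil chemokines, CXCL8 and CXCL2, were on the higher side at an unadjusted p under 0.05 (2.56% of all symbols were). CXCL8, or interleukin 8, was at 105, 61.7 and 90.9 in air and 99.9, 161 and 209.5 in medium animals (0.73 ± 0.25; adjusted p = 0.808). Animals 39 and 42 were above the air range, and animal 34 was inside it. The same order held for CXCL2 (147, 63.1 and 121 against 139.5, 269 and 316; 0.99 ± 0.32; adjusted p = 0.808). IL6 was dim and overlapped (23.6, 6.84 and 18.0 against 26.8, 17.0 and 16.1; 0.18 ± 0.23), IL1B differed by -0.14 ± 0.11 and TNF by -0.30 ± 0.21. Over 29 genes the median was -0.05, with 12 above 0. On the lower side at an unadjusted p under 0.05 (3.28% of all symbols) stood the growth factor CSF2 (-0.49 ± 0.21) and NFKB1 (-0.40 ± 0.15). Both had mean signals under 20 in each group. Neutrophil markers had no common direction. The median over 10 genes was 0.00095, their summed signal was 1702 to 2235 in air and 1930.2 to 1952 in medium animals, S100A9 differed by 0.13 ± 0.15 and S100A8 by -0.07 ± 0.15. TREM1, a receptor that amplifies myeloid inflammation, was an exception at 23.4, 27.2 and 11.6 against 41.7, 44 and 49.7 (0.75 ± 0.20; adjusted p = 0.808).

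Interferon stimulated genes were higher in the medium group for the antiviral effectors ISG15 (524, 236 and 173 against 633, 531 and 595; 1.00 ± 0.41), MX1 (457, 217 and 215 against 688, 499 and 415; 0.84 ± 0.32) and IFIT1 (627, 384 and 237 against 629, 759.7 and 576; 0.73 ± 0.29). In all of these air animal 28 was high, near or inside the medium range, and the groups overlapped after normalization on the probe sets given. A second IFIT1 probe set also overlapped (0.78 ± 0.33), while the dimmest IFIT1 probe set had separate groups (0.40 ± 0.13). The list's deviation from the air mean was 0.38, -0.23 and -0.14 in air animals 28, 29 and 44 and 0.45, 0.01 and 0.01 in medium animals 34, 39 and 42, so 1 animal of each group stood apart from its own group. The median difference of the 22 genes was 0.17, and 0.04 without animal 34 or 0.32 without animal 28. STAT2, a subunit of the factor that drives these genes, was lower with separate groups (321, 277 and 205 against 197, 183 and 169; -0.49 ± 0.20), and the interferon gamma targets CXCL9 (-0.44 ± 0.48), GBP1 (-0.33 ± 0.27) and IRF1 (-0.30 ± 0.22) had differences below 0.

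GNLY, the granule protein granulysin, was at 527, 557 and 415 in air and 233, 257 and 226 in medium animals, and the medium animals sat in a narrow band below every air animal (-1.02 ± 0.26; adjusted p = 0.8). Of the 15 measured T and NK cell markers, 4 were above 0, the median was -0.12, and the summed signal was 2272 to 2399 in air and 1646 to 2161 in medium animals. Without GNLY the sum was 1872, 1815 and 1857 in air animals 28, 29 and 44 and 1928, 1469.7 and 1419.9 in medium animals 34, 39 and 42, with animal 34 above every air animal. The T cell receptor genes CD3E (279, 327 and 309 against 273, 270.0 and 241; -0.22 ± 0.14) and CD3D (179.6, 194 and 159 against 213, 84.9 and 115; -0.39 ± 0.27) and the kinase LCK (-0.38 ± 0.22) had smaller differences. Animal 34 had the highest CD3D of the 6 animals, and the list's deviation was 0.08, -0.35 and -0.22 in animals 34, 39 and 42. Leaving animal 34 out moved the median to -0.31 and leaving animal 39 out gave -0.12.

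Animals 34 and 39 also lay on opposite sides for myeloid and antigen presentation genes. The macrophage scavenger receptor MARCO was at 1261, 186 and 544 in animals 34, 39 and 42 against 563, 641 and 878 in air animals (-0.42 ± 0.56), and the invariant chain CD74 at 1738, 689.8 and 1114 against 1251, 1317 and 1665 (-0.33 ± 0.28). CD14, the endotoxin coreceptor, was at 157, 22.2 and 124 against 41.8, 37.7 and 43.2 (0.81 ± 0.48), with animals 34 and 42 above and animal 39 below the air range. Over the 15 MHC class II and dendritic cell genes the median was -0.16 with 2 above 0 (SLA-DMB, a peptide loading chain, -0.35 ± 0.14), and 0.02 without animal 39. The 15 macrophage markers had a median of -0.09, or 0.03 with 8 of 15 above 0 without animal 39, and summed signals of 12982 to 15609 in air and 9959 to 15400.1 in medium animals. CHI3L1, a chitinase-like protein of macrophages and epithelium, was lower with separate groups (1899.6, 2059.7 and 1833 against 1492, 1438 and 1197; -0.42 ± 0.14). Animal 39 had the RNA index of 1.18, and its part in these values was not tested.

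**Figure D3:**
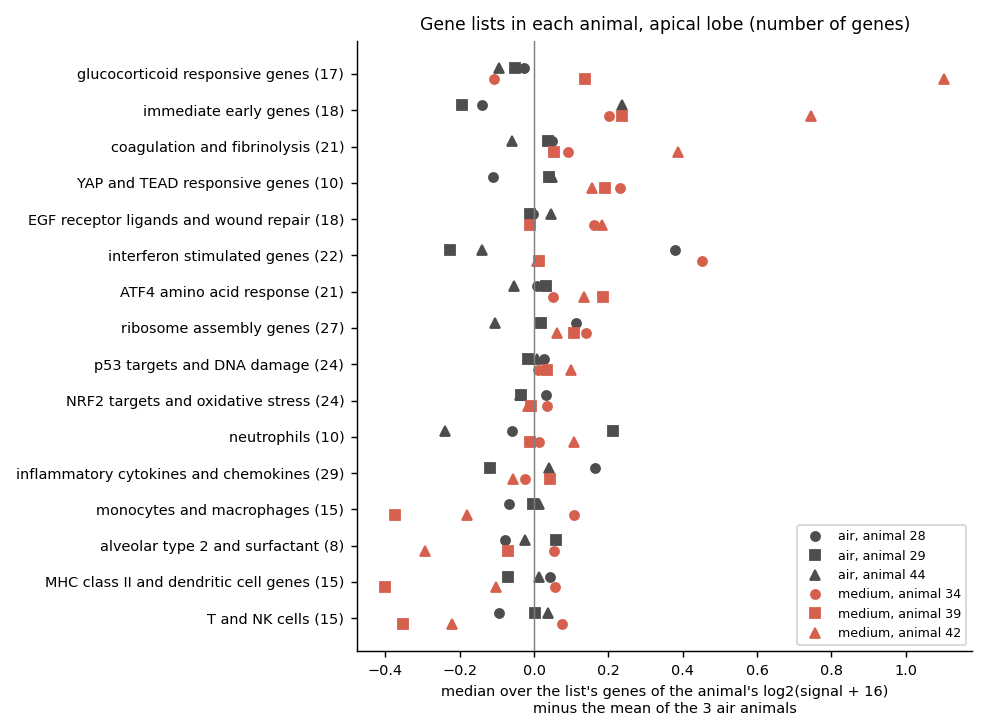
For 16 gene lists (number of measured genes in brackets), the median over the list of each animal's log2(signal + 16) minus the mean of the 3 air animals, in air (grey) and medium (red) animals. Medium animals 34, 39 and 42 lie at 0.06, -0.40 and -0.10 for MHC class II genes and at 0.11, -0.37 and -0.18 for macrophage genes, and animal 42 stands out for glucocorticoid responsive genes.

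Structural cell types gave small values. Airway secretory genes had a median of 0.10 over 12, in which CLDN4 (189.5, 149 and 158 against 243, 261 and 294) separated the groups and the keratins KRT8 (0.23 ± 0.21) and KRT18 (0.27 ± 0.29) were highest in animal 42. Without animal 42 that median was -0.01, and that of the smooth muscle genes below -0.03. Ciliated cell genes had a median of -0.10, endothelial genes 0.03, fibroblast genes 0.08 and alveolar type 1 genes -0.04 (0.06 without animal 39). Smooth muscle genes had a median of 0.10 over 12 with members on both sides: ACTG2 (889.8, 1275 and 1047 against 1891, 1236 and 1359.5; 0.54 ± 0.20, but -0.17 ± 0.09 on a second probe set) and MYL9 (329, 373 and 412 against 281, 247 and 297; -0.43 ± 0.13). Red cell genes had summed signals of 698 to 952 in air and 1013 to 1103 in medium animals. These sums did not overlap, but the groups were separate in 0 of the 5 genes, and 1 gene was below 0. The largest difference among them was that of the heme synthesis enzyme ALAS2 (0.80 ± 0.48). Of the tissues that a lung sample could carry along, mesothelium had a summed signal of 18.8 or less and cartilage of 192 or less in medium animals, and striated and heart muscle, over 18 genes, 369 to 471. Among liver genes albumin (ALB) was at 9.60, 13.7 and 5.30 in medium animals. Transferrin (TF) was at 1351, 1509 and 658 in air and at 865, 576 and 706 in medium animals. Adipocyte genes had a summed signal of 627 in animal 42 and of 160 to 261 in the other animals of both groups, through the lipase LPL (108, 96.2 and 504 in animals 34, 39 and 42 against 188, 179.5 and 109 in air), while the fat cell hormone adiponectin (ADIPOQ) was at 12.5, 11.8 and 13.2 against 11.3, 8.36 and 16.2. Of the cartilage genes, COMP (8.08, 5.83 and 2.28 in air against 13.6, 15.1 and 25.2 in medium animals; 0.65 ± 0.16, but -0.31 ± 0.14 on a second probe set) and HAPLN1 (9.46, 6.83 and 9.72 in air against 27.6, 19.8 and 18.0; 0.60 ± 0.15) had separate groups at low signal. The liver gene FGB, a fibrinogen chain, differed by -0.29 ± 0.11 at signals of 10.9, 11.7 and 13.9 against 5.17, 8.93 and 8.21.

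Metabolic and growth lists were also near 0. In sterol synthesis, SC5D (236, 184 and 219.8 against 269, 341 and 341; 0.52 ± 0.13) and NSDHL (82.5, 81.5 and 71.6 against 100.3, 106 and 97.3; 0.32 ± 0.10) separated the groups. A second NSDHL probe set gave 0.26 ± 0.21, with groups that overlapped. The sterol list's median was 0.06, and the upstream enzymes HMGCS1 and SQLE differed by 0.21 ± 0.19 and -0.24 ± 0.16. Oxidative phosphorylation had a median of -0.06 (with the complex II subunit SDHC at -0.29 ± 0.12), cell cycle genes -0.03 (the cyclin CCNA2 at 0.38 ± 0.14), heat shock genes 0.04 (HSPA4 at -0.31 ± 0.12) and hypoxia and glycolysis genes 0.01 (the phosphofructokinase PFKM at -0.36 ± 0.12). In each of these named genes the groups did not overlap, but other HSPA4 probe sets gave 0.05 ± 0.14 and 0.03 ± 0.18. The hypoxia and glycolysis value averages animals that differ, with list deviations of -0.15, -0.15 and 0.30 in animals 34, 39 and 42, and without animal 42 its median was -0.18, with 3 of 21 above 0. The cell cycle median was 0.10 without animal 42, and the heat shock median -0.02 without air animal 29. Extracellular matrix genes had a median of 0.12, and 0.02 without air animal 28.

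The same animals' other lobes give the comparison its context. Fitted alone in the same way, the median lobe had 97 called probe sets (0.404%) and 4465 at an unadjusted p under 0.05 (18.6%). The caudal lobe had 1 (0.00417%) and 3714 (15.5%). The 1 called was the dimmer THBS1 probe set, whose groups overlapped in the apical lobe. Those fits had medium animal 41, which the apical comparison lacks. With only animals that have an apical array, 0 were called in either lobe, and 3666 and 3073 had an unadjusted p under 0.05. The middle 90% of differences over the 6765 symbols ran from -0.32 to 0.30 in the apical lobe, from -0.48 to 0.46 in the median lobe and from -0.46 to 0.44 in the caudal lobe. When the difference between lobes was tested itself within animals, 0 probe sets were called for apical minus median (2021 at an unadjusted p under 0.05, 8.42%) and 0 for apical minus caudal (1212, 5.05%).

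The lobes come largely from the same animals, so their values are set side by side. The median and caudal lobe values include medium animal 41, which the within-animal tests lack. The apical minus caudal test lacks medium animal 39 as well. FBXO32 differed by -1.52 in the apical, -1.82 in the median and -1.95 in the caudal lobe, and MUC1 by -0.76, -0.76 and -0.62. TNFRSF12A was at 1.28, 1.81 and 1.71, and F3 at 0.66, 1.57 and 1.48. For F3 the within-animal test of apical minus median gave -0.89 ± 0.40 (adjusted p = 0.591), which did not pass the threshold over all probe sets. F2R was on the larger side in the apical lobe, at 0.57 against 0.15 and 0.20 (apical minus median 0.40 ± 0.15; adjusted p = 0.545).

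**Figure D4:**
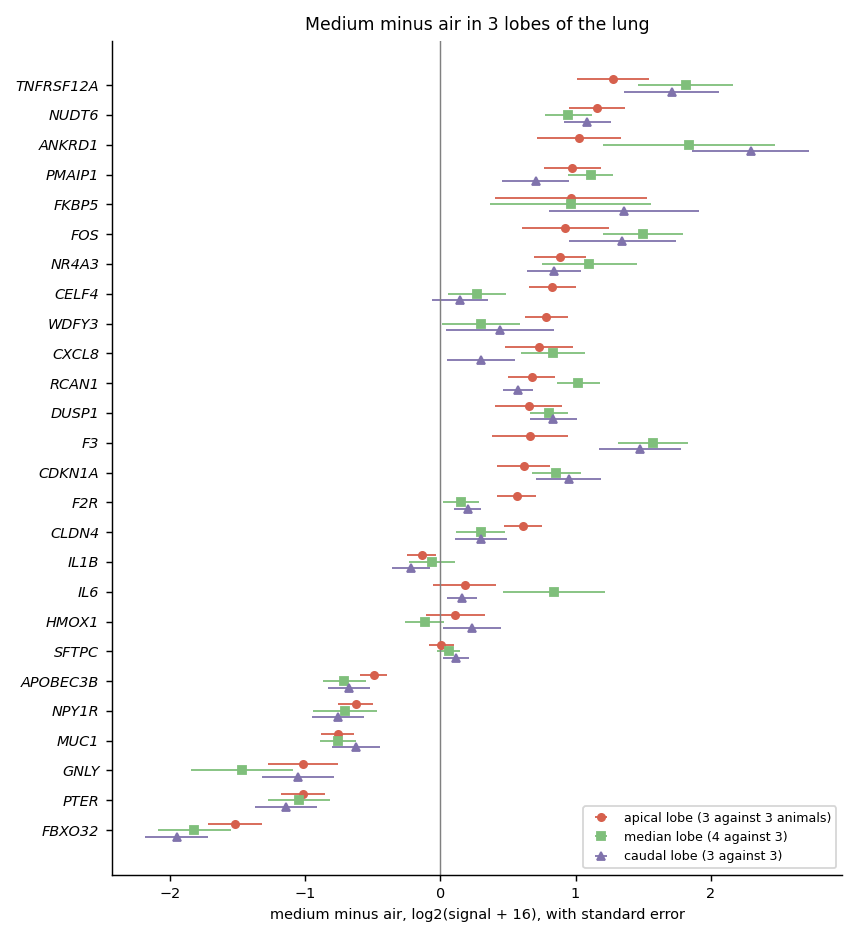
Medium minus air difference in log2(signal + 16) with its standard error (horizontal axis) for 26 genes in the apical (3 against 3 animals), median (4 against 3) and caudal (3 against 3) lobes. The lobes share animals, and medium animal 41 is in the median and caudal lobes only. F3, ANKRD1 and TNFRSF12A have smaller values in the apical lobe, while CELF4, WDFY3 and F2R have larger ones there. None of these was called in the within-animal tests between lobes.

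The genes with the smallest p for apical minus median were NPPB, CXCL13, GJB5 and POLR1E. NPPB, the natriuretic peptide B precursor, was at 27.5, 23.6 and 43.8 against 36.2, 28.8 and 58.8 in the apical lobe but at 44, 28.1 and 22.0 against 92.9, 91.1 and 143 in the median lobe of the same animals (apical minus median -1.16 ± 0.22; adjusted p = 0.485). Every medium animal was above every air animal in the median lobe, which was not so in the apical lobe. CXCL13, a B cell chemokine, was at 118, 47.1 and 52.1 against 198, 43.1 and 36.1 in the apical lobe. It differed by 0.10 ± 0.52 there and by -1.13 in the median lobe fit, which had animal 41. The within-animal test, which lacked animal 41, gave 0.98 ± 0.17 for apical minus median. The sign of CXCL13 in the apical lobe turned when medium animal 34 (-0.54) or air animal 29 or 44 was left out. GJB5, a connexin, gave 0.98 ± 0.17 at mean signals under 30 in each group, and POLR1E, a subunit of RNA polymerase I, gave -0.67 ± 0.11. Against the caudal lobe the test had only medium animals 34 and 42, since animal 39 had no caudal array. The smallest p there belonged to GNAZ, a G protein subunit (-1.19 ± 0.22), and the endocytic adaptor PICALM (-1.07 ± 0.20). Next came the nuclear envelope protein SYNE2 (0.65 ± 0.13) and VPS4A, an ATPase of membrane scission (-0.67 ± 0.14). Each had an adjusted p of 0.956. The apical GNAZ signal was 9.83 and 7.52 in animals 34 and 42 but 29.8 in animal 39.

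Ribosome assembly genes, whose products build ribosomal subunits in the nucleolus, had the highest count of the 44 lists in the test of apical against median lobe. In the apical lobe the 27 measured genes had a median difference of 0.09, with 21 above 0 and 2 at an unadjusted p under 0.05 (NOP58, 0.30 ± 0.10, and GNL3, 0.29 ± 0.12). In the median lobe of the same animals the median was 0.41. Tested within animals, 12 of the 27 had a smaller medium minus air difference in the apical lobe at an unadjusted p under 0.05 and 0 a larger one, where 4.98% of all symbols had a smaller and 3.65% a larger one. None passed limma's adjusted threshold. NOP56, a core protein of small nucleolar ribonucleoproteins, shows the pattern: its apical signals were 284, 271 and 276 in air and 306, 286 and 307 in medium animals, and its median lobe signals 315, 232 and 328 and 482, 474 and 603. The apical groups were nearly level and the median lobe groups far apart (apical minus median -0.71 ± 0.14). The methyltransferase of box C/D particles, FBL, was at 598, 573 and 511 against 606, 616 and 505 in the apical and 665, 541 and 676 against 821, 801 and 982 in the median lobe.

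Within single animals, the list's apical minus median lobe value was -0.12, -0.02 and -0.18 in air animals 28, 29 and 44 and -0.35, -0.33 and -0.65 in medium animals 34, 39 and 42, so all medium animals were below all air animals. The count of 12 was 5 without animal 42, 6 without air animal 28 or 29 and 13 without animal 39. Against the caudal lobe, 3 of 27 were smaller in the apical lobe (2.71% of all symbols) and 0 larger (1.85%). The median was -0.34 over 8 animals, of which the medium animals were 34 and 42.

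The amino acid response genes of the transcription factor ATF4 had the next highest count. In the apical lobe 5 of 21 had separate groups on the higher side (4.29% of all symbols did), among them asparagine synthetase ASNS (143, 152 and 139 against 168, 217 and 172; 0.32 ± 0.11) and the arginine transporter SLC7A1 (170.0, 179.9 and 133 against 201, 202 and 244; 0.39 ± 0.15), and the median was 0.10, against 0.39 in the median lobe of the same animals. Tested within animals, 7 of 21 were smaller and 1 larger in the apical lobe at an unadjusted p under 0.05. Over all symbols 4.98% were smaller and 3.65% larger. The count of smaller genes was 4 to 10 when 1 animal was left out. PYCR1, an enzyme of proline synthesis, was at 53.7, 55.3 and 56.7 against 67.0, 88.3 and 62.9 in the apical lobe and 129, 66.6 and 107 against 190.2, 309 and 255 in the median lobe (apical minus median -0.90 ± 0.21). The glutamyl-prolyl tRNA synthetase EPRS differed by 0.0029 and 0.72. Of 15 endoplasmic reticulum chaperones, 4 were smaller in the apical lobe (4.98% of all symbols; 2 without animal 29 or 39 and 6 without animal 44), including DNAJB11 (-0.46 ± 0.10) and MANF (-0.44 ± 0.14). Animal 39, whose RNA index was also highest in the median lobe at 1.53, was among the 3 medium animals in each of these tests.

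**Figure D5:**
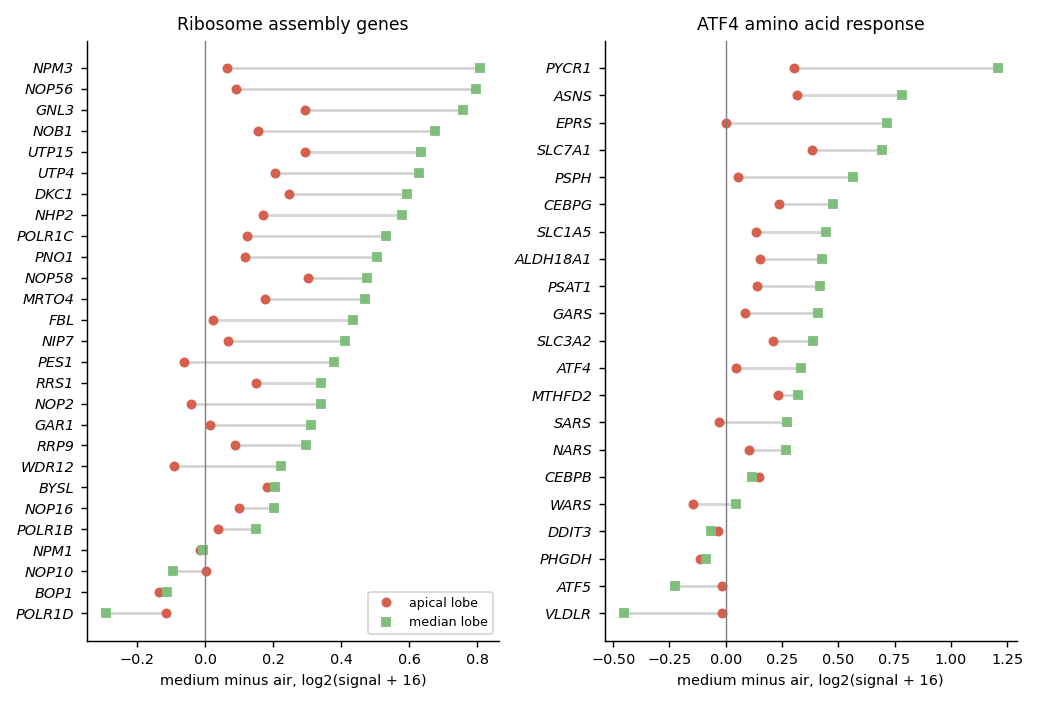
Medium minus air difference in log2(signal + 16) (horizontal axis) of 27 ribosome assembly and 21 ATF4 responsive genes in the apical and the median lobe of the same 6 animals, joined by a line for each gene. Most genes lie further right in the median lobe, with list medians of 0.41 and 0.39, than in the apical lobe, with 0.09 and 0.10.

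Single genes of other lists also differed less in the apical than in the median lobe by the within-animal test. MYC was at 219.9, 159.9 and 198 against 194, 169.8 and 305 in the apical and 229, 176 and 180.3 against 296, 277 and 443 in the median lobe (apical minus median -0.57 ± 0.11). The monocyte chemokine CCL2 (-0.78 ± 0.21), the cytokine LIF (-0.65 ± 0.14), the farnesyl diphosphate synthase FDPS (-0.61 ± 0.13) and the collagen COL8A1 (-0.75 ± 0.17) were on the same side. CCL4, a chemokine of activated myeloid and cytotoxic cells, lay on the other side (0.62 ± 0.12), as did TREM1 (0.55 ± 0.17) and the interferon gene IFIT2 (0.54 ± 0.14). These were chosen from the lists for their small p, and each had an adjusted p of at least 0.485.

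The low-dose animals stood between the other groups for some genes and beside the air group for others. The apical lobe had 0 probe sets called for low minus air (1708 at an unadjusted p under 0.05, 7.12%) and 0 for medium minus low (2690, 11.2%). FBXO32 was at 184, 153 and 176 in low animals 31, 32 and 33, between the groups without touching either. Its low minus air difference was -0.88 ± 0.20. MUC1 (132, 146 and 116) was intermediate too and PTER (63.0, 51.4 and 86.7) reached into the air range, with low minus air differences of -0.34 ± 0.12 and -0.42 ± 0.16. PMAIP1 (94.7, 101 and 67.1) and TNFRSF12A (182, 102 and 86.7) were spread between the air and medium levels. By contrast APOBEC3B (-0.05 ± 0.10), SCPEP1 (-0.0048 ± 0.13), ANKRD1 (-0.04 ± 0.31) and CDKN1A (0.13 ± 0.20) differed little from the air level in the low animals. CXCL8 was lower in the low than in the air animals (72.9, 44.3 and 58.8; low minus air -0.48 ± 0.25) and so had its larger difference against the low group (medium minus low 1.21 ± 0.25; adjusted p = 0.33). CLDN4 was as high in the low animals (244, 327 and 239) as in the medium animals. The comparisons share the medium or the air animals and are therefore not independent.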

How the data were processed

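Lung RNA of 28 lobe samples was hybridized to Affymetrix porcine arrays. The authors deposited 1 table of linear signal intensity per probe set. Its trimmed mean (2% off each end) was 150 on every array, so the deposited intensities had been scaled. The summarization software is not given in the sources used here. Of 24123 probe sets, 124 controls were left out. Intensities were quantile normalized over the 28 arrays and log2(signal + 16) was tested with limma 3.58.1 (R 4.3.3), using 9 apical arrays with 1 mean per exposure group and Benjamini-Hochberg adjustment over 23999 probe sets at 0.05. Differences between lobes were tested with the animal as a fixed block (9 animals for the median, 8 for the caudal lobe), since arrays with the same animal number come from 1 animal. The script was tested on simulated data. Figures used matplotlib 3.10.9.

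Symbols came from the platform annotation (10069 probe sets with 1 symbol, 198 with several, 13732 with none), and 9961 symbols of probe sets matched the RefSeq table of Sscrofa11.1. A gene stands by its brightest probe set, judged on all 28 arrays together. Named genes were those called, the 10 with the smallest p in each direction at a mean signal of 32 or more, up to 4 members per list at an unadjusted p under 0.05, the 4 with the smallest p of each lobe test, and a fixed set. Further list members are named for their role or values, as chosen after their values were seen. The members and the 44 lists were chosen with earlier results of these data known. Signals in the text are as deposited, and overlap was judged on normalized values. Alternatives changed the scaling, offset, filter, samples, RNA index and animals. With 1 array per animal, the number of animals limits the precision.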

Additional observations from a re-analysis of the deposited data

How the results depend on the processing

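The count of 0 called probe sets in the apical lobe was 0 under the other scalings, offsets of 1 and 64, the filter on dim probe sets, the fit of air and medium arrays alone, trended robust variances and the RNA index as a covariate, while the count at an unadjusted p under 0.05 ran from 684 to 1785. With all 28 arrays and the animal as a random replicate block, 5 were called (4 higher, 1 lower; correlation within animals 0.344). Leaving out 1 animal gave 0 to 1, the 1 being the leading probe set without a symbol, in the fit without medium animal 34 (adjusted p = 0.0285), and 979 to 2140 at an unadjusted p under 0.05. For apical minus median lobe, leaving out 1 animal gave 0 to 1 (1 without air animal 28), and without the animal block 0 were called (847 at an unadjusted p under 0.05). For apical minus caudal lobe all alternatives run gave 0 (630 at an unadjusted p under 0.05 without the block). Of 1242 values of 70 named genes, 13 changed sign: SFTPC was -0.21 with median-centred arrays, -0.24 with the deposited scaling, -0.0029 with the RNA index, and between -0.036 and 0.059 when 1 animal was left out. CXCL13 was -0.034 with the animal block and between -0.54 and 0.49 when 1 animal was left out. Leaving out 1 animal also turned IL6 (from -0.033 to 0.37) and HMOX1 (from -0.10 to 0.29). The cause was not tested. Of 834 list medians, 38 moved by more than the spread between the medium animals. The leave-one-out values of lists, the other lobes without animal 41 and the T and NK cell sum without GNLY were added after seeing the data. Dim genes, near a signal of 16, have only small differences on this scale.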
